A study of Mus musculus with 16 samples.

Results

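Among 637 light zone (LZ) germinal center (GC) B cells in the deposited count matrix, 60 were chosen by a count of at least 1 for at least 2 of the genes Irf4, Prdm1 and Xbp1, and these 60 cells are the members described here. The 3 genes encode transcription factors of plasma cell differentiation, and their counts chose the members, so they are given below as a description and enter no test. The remaining 577 cells, called other cells, comprised 328 with a count for exactly 1 of the 3 genes and 249 with none. The working name for the members is plasma-leaning LZ B cells, and their own transcripts bore that name out only in part: the defining plasma cell surface gene Sdc1 was detected in 7 of 60 members.

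The cells came from popliteal lymph nodes of male C57BL/6J or B6.SJL mice primed with ovalbumin, which received 2 kinds of donor B cells before a boost with NP-OVA. Both donors carried the B1-8hi heavy chain knock-in, which with a lambda light chain binds the hapten NP, and either the drug-resistant kinase (B1-8hi BTKC481S) or the drug-sensitive one (B1-8hi BTKWT). Hosts were given acalabrutinib, an inhibitor of the B cell receptor (BCR) kinase BTK, by mouth (5 hosts, A7, A8, A10, A11 and A12, 381 cells), or vehicle alone (3 hosts, V5, V7 and V9, 256 cells). Cell names give the host but not the donor genotype, so cells were pooled by host whatever their donor and the host is the replicate. Each sorted cell was its own SMART-seq2 library without molecular identifiers, and libraries held 132412 to 1825420 counts (median 788352 in acalabrutinib and 796728 in vehicle hosts).

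In the light zone, B cells that obtain antigen and T cell help return to the dark zone, leave as memory cells, or begin to become antibody-secreting plasma cells. IRF4 is induced by BCR and CD40 signals and at high levels favors the plasma cell route, BLIMP-1 (encoded by Prdm1) represses the B cell program including Pax5, and XBP1 expands the endoplasmic reticulum (ER) for secretion. PAX5, BACH2 and BCL6 hold the B cell and GC state and oppose this route.

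Every member carried Xbp1. Irf4 and Xbp1 without Prdm1 were found in 27 members, Prdm1 and Xbp1 without Irf4 in 21, all 3 genes in 12, and Irf4 with Prdm1 but no Xbp1 in 0. Xbp1 was also the gene that the other cells shared most, with counts in 297 of 577, against 24 for Irf4 and 7 for Prdm1. Membership was therefore set by Irf4 or Prdm1 within a population in which Xbp1 was common.

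Where detected in members, Xbp1 had 1 to 3130 counts per cell (median 515), Irf4 1 to 1849 (median 134) and Prdm1 1 to 2053 (median 4). The Prdm1 counts lay in separate ranges: 15 members had at least 39 counts, and 18 had 7 or fewer, of which 10 had a single count. At the edge of the rule, 13 members had exactly 1 count of their second gene and 10 had 2 to 9, while the 328 cells just outside had 1 to 2150 counts of their only gene (median 459.5). The plot of rule gene counts by host shows this spread within hosts.

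**Figure D1:**
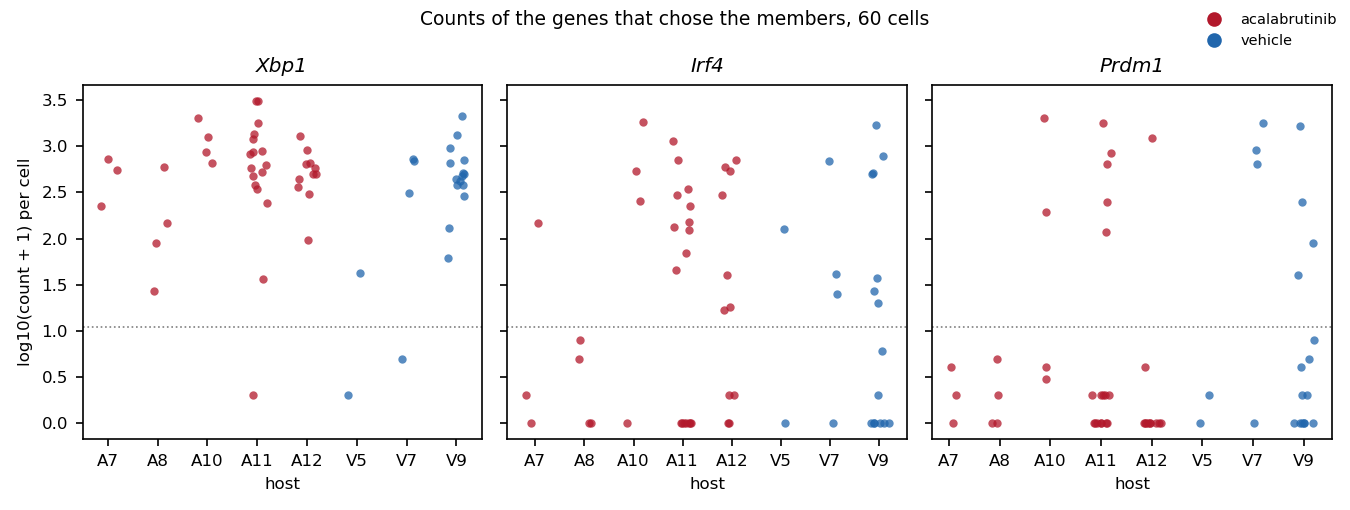
Counts of Xbp1, Irf4 and Prdm1 in each of the 60 members, as log10(count + 1), by host (red, acalabrutinib; blue, vehicle); the dotted line marks 10 counts. Xbp1 was detected in every member, whereas Prdm1 was either at 39 counts or more or at 7 or fewer.

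Members made up 9.42% of all cells (60 of 637, exact binomial 95% confidence interval, 7.26 to 11.96%, which covers counting error only). By host the share was 6.67% in A7 (3 of 45 cells), 4.49% in A8 (4 of 89), 7.69% in A10 (4 of 52), 14.9% in A11 (17 of 114) and 13.6% in A12 (11 of 81) under acalabrutinib. It was 2.82% in V5 (2 of 71), 7.27% in V7 (4 of 55) and 11.5% in V9 (15 of 130) under vehicle. Shares of the treatment groups overlapped, at 9.47% ± 4.54 (SD, n = 5) with acalabrutinib and 7.21% ± 4.36 (SD, n = 3) with vehicle, a difference of 2.26 percentage points that did not pass a two-sided exact permutation test (p = 0.464, and the smallest p the 56 splits allow is 0.0179). The difference was 0.064 without V5, 0.90 without A11, 1.23 without A12, 3.50 without A8 and 4.42 without V9. With every cell thinned to 459128 counts, 48 of the 573 cells deep enough were members (8.38%). All 48 were among the original 60 by construction, since thinning only removes counts. Requiring 10 counts per gene left 37 members (5.81%).

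**Figure D2:**
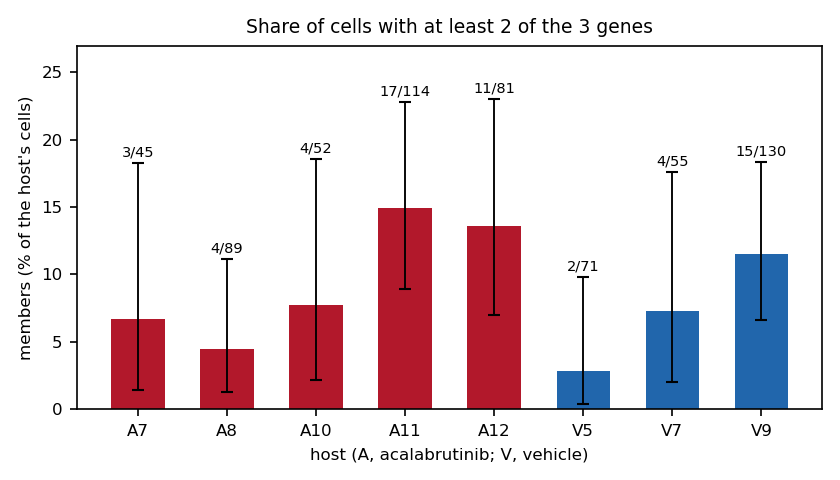
Members as a percentage of each host's cells, with exact binomial 95% intervals and the number of members over the number of cells; red bars are acalabrutinib and blue bars vehicle hosts. The intervals of the 8 hosts overlap, with the highest share in A11 (14.9%) and the lowest in V5 (2.82%).

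Hosts A11, A12 and V9 had at least 5 members each (17, 11 and 15) and carry the comparison of members with other cells, each host giving 1 sum of members and 1 of other cells. Median depth in the members was 878280, 863460 and 952005 counts in A11, A12 and V9, against 836133, 956866 and 854207 in other cells, so members were deeper in 2 of 3 hosts. Median genes detected were 4931, 4238 and 4752 in members against 4183, 4392 and 4268 in other cells, again higher in 2 of 3 hosts (mean difference 359 ± 464 genes, SD, n = 3, two-sided exact sign-flip permutation p = 0.5, where 3 hosts cannot go below 0.25). Without A11 the difference was 165 genes and without A12 it was 616. Mitochondrial transcripts took a median of 0.687% of counts in members and 0.732% in other cells. In depth, the mean difference of 15513 counts was smaller than its spread between hosts (SD 98345, n = 3, exact sign-flip permutation p = 0.75).

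No single gene passed the adjusted threshold between members and other cells. The lists of ER chaperones and of export genes had positive median log2 differences (0.51 and 0.45, and 0.36 and 0.34 when other cells were matched in depth). The GC and B cell identity list had a negative one (-0.35, and -0.46 matched in depth). All tested genes were at -0.44, and at 0.068 matched in depth. Among 15414 genes, edgeR's quasi-likelihood test with host as a block called 0 (0% of tested genes) at a Benjamini-Hochberg adjusted p under 0.05, with 0.602 the smallest adjusted p. At an unadjusted p under 0.05, 217 genes were higher (1.41%) and 1021 lower (6.62%). DESeq2 on the same sums called 148 genes higher and 667 lower, with a median log2 difference over all genes of -0.34. In edgeR the median log2 difference over all tested genes was -0.44, and -0.04 over the 7722 genes averaging 20 CPM or more (counts per 1000000 counts of a sum), so the shift lay mainly in sparse genes. No gene named below therefore rests on an adjusted edgeR call. The 24 genes with the lowest p that had the same direction in all 3 hosts were chosen after their values were seen.

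ER chaperones and folding enzymes had the highest median of the lists with at least 10 tested genes in the main edgeR fit. Matched in depth the plasma cell identity list was higher (0.38 against 0.36), and in limma voom over 7 hosts the ER export list was (0.68 against 0.66). Of the 31 genes listed as ER chaperones and folding enzymes, all of which were tested, 8 were higher at an unadjusted p under 0.05 and 0 lower, against 1.41% and 6.62% of all genes. This list's median log2 difference was 0.51 against -0.44 for all tested genes and -0.04 for those averaging 20 CPM or more. Pdia4, a protein disulfide isomerase, stood at 495, 332 and 254 CPM in the members of A11, A12 and V9 and at 172, 72.0 and 106.96 CPM in other cells. Members were higher in each host and the groups did not overlap, as held for 4.49% of tested genes in this direction (log2 difference 1.73, SE 0.28, edgeR unadjusted p = 0.00129, adjusted p = 0.602). Hsp90b1, the ER form of HSP90, stood at 511, 526 and 461 CPM in members and at 321, 213 and 241 CPM in other cells. Its groups were also separate (log2 difference 1.04, SE 0.20, edgeR unadjusted p = 0.00296, adjusted p = 0.602). The 3 cells with most counts held 56.2%, 79.6% and 81.1% of the Pdia4 counts in members of A11, A12 and V9, and 51.2%, 55.1% and 54.4% of those of Hsp90b1.

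The 3 most abundant genes of this list differed less. Canx, the lectin chaperone calnexin, was at 1070.4, 694 and 1011 CPM in members against 754, 634 and 629.8 CPM in other cells (log2 difference 0.51, SE 0.15). Hspa5, which encodes the chaperone BiP, was at 1022, 727 and 764 CPM against 710.3, 517 and 732 CPM (log2 difference 0.43, SE 0.16). Both genes were higher within each host although the ranges of the groups touched or overlapped across hosts. Erp44, an ER retention protein, was at 702, 1015 and 854 CPM against 702, 659.5 and 847 CPM, and members exceeded other cells by a clear margin in A12 alone.

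Several genes of this ER chaperone list share a short promoter sequence, the ER stress element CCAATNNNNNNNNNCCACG. It is shown because XBP1 and ATF6 are known to act through it. Either strand of the element was found in 9 of 29 promoters of the list (27 genes matched a RefSeq GRCm38.p6 entry, from 250 bases before to 50 after the start) and in 39 of all 32851 promoters (0.119%). The list was drawn up for ER chaperones and the ER stress response, so its share describes the list and not the members. Pdia4 and Erp44 were not among the 9. The matches for Hspa5, Hsp90b1 and Pdia6 follow, 60 bases each on the gene's strand, with the element in capitals. In the second Hsp90b1 site it lies on the opposite strand.
Hspa5, chr2:34772004-34772063, plus strand: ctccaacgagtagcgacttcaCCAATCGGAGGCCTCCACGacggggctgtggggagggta
Hsp90b1 first site, chr10:86705618-86705677, minus strand: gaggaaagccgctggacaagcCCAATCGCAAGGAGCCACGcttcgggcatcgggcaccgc
Hsp90b1 second site, chr10:86705513-86705572, minus strand: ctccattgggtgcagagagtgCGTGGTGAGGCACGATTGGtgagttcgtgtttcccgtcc
Pdia6, chr12:17266470-17266529, plus strand: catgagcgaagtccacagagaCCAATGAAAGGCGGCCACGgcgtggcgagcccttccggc
A match describes these letters alone, and binding was not measured.

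The ER translocation, glycosylation and export list was close to it. Of 38 genes tested, 10 were higher at an unadjusted p under 0.05 and 0 lower, against 1.41% and 6.62% of all tested genes, with a median log2 difference of 0.45 against -0.44 for all tested genes and -0.04 for those averaging 20 CPM or more. Rpn1, a subunit of the oligosaccharyltransferase that attaches sugars to nascent chains, stood at 585, 615 and 693 CPM in members and 373, 255 and 391 CPM in other cells. These groups did not overlap (log2 difference 0.98, SE 0.19, edgeR unadjusted p = 0.00321, adjusted p = 0.602). Ssr1, part of the translocon-associated complex, was at 749, 550 and 459 CPM against 484, 408 and 451 CPM, and was nearly level in V9. Tram1, another translocon-associated protein, ran the other way in A12 (328 against 518 CPM) and V9 (380.2 against 619 CPM) and was higher in members in A11 alone (636 against 521 CPM).

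Tram2, a relative of Tram1, was among the 12 leading genes on the higher side, at 416, 143 and 205 CPM in members and 108, 64.9 and 56.005 CPM in other cells (log2 difference 1.73, SE 0.28). Zeb2, a zinc finger transcription factor, was at 377, 173 and 245 CPM against 38.6, 10.8 and 45.3 CPM (log2 difference 3.31, SE 0.43). Rbm47, an RNA-binding protein, was at 523, 140.0 and 197 CPM against 39.6, 21.8 and 45.7 CPM (log2 difference 2.90, SE 0.41). These sums rest on few cells. Of the Rbm47 counts in members, 3 cells held 95.7% in A11, 97.0% in A12 and 81.6% in V9, and for Tram2 the shares were 88.6%, 97.9% and 71.4% and for Zeb2 85.4%, 100% and 97.3%. Rpn1, in contrast, was detected in 14 of 17, 10 of 11 and 15 of 15 members, with 41.1%, 54.2% and 34.1% of its counts in 3 cells. Tram2, Rbm47 and Zeb2 had separate groups, and Zeb2 and Rbm47 were the leading genes by unadjusted p on the higher side. The others were Morrbid, a long noncoding RNA next to the death gene Bcl2l11, Bcl2l1, which encodes the survival protein BCL-XL, Fndc3a, Capg, an actin-capping protein, Aff1 and Mtdh, with log2 differences from 1.03 (Mtdh) to 2.34 (Morrbid). In other edgeR fits Morrbid was at -0.36 over the 7 hosts with at least 3 members, and Fndc3a at -0.31 with a host-and-plate block. The medians of genes averaging 100 CPM or more were -0.33 and -0.60 in those sums. In limma voom over the 7 hosts, a fit added after seeing the data, Morrbid was at 2.31 and Fndc3a at 1.63, with a median of 0.27 over all its genes. Bcl2l1 overlapped between groups, at 106, 213 and 390.2 CPM in members and 53.3, 80.5 and 125 CPM in other cells.

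**Figure D3:**
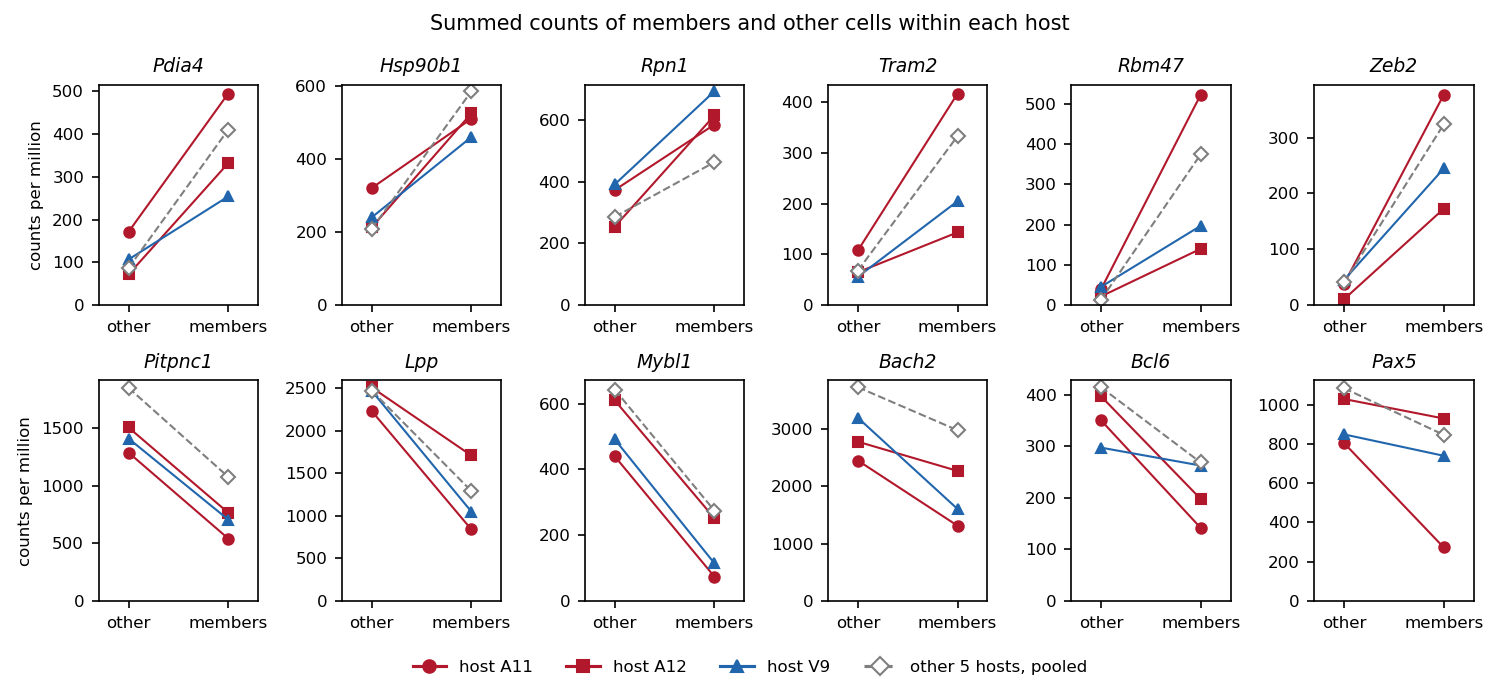
CPM of 12 genes in the summed other cells and summed members of A11, A12 and V9 (lines join sums of one host) and of the other 5 hosts pooled (dashed), each axis starting at 0. The upper row holds genes higher in members and the lower row genes lower in members, with the same direction in A11, A12 and V9 for all 12.

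Among B cell and GC identity genes, more were lower than higher in members. Of 30 listed genes, all tested, 0 were higher and 6 lower at an unadjusted p under 0.05, against a background of 6.62% lower, and 14 were lower in 3 of 3 hosts, as 22.8% of tested genes were. The list's median log2 difference was -0.35, less negative than the -0.44 of all tested genes but below the -0.04 of those averaging 20 CPM or more. Mybl1, a GC transcription factor, stood at 73.9, 252 and 115 CPM in members and 440, 609.6 and 491 CPM in other cells. Its groups were separate, as held for 14.8% of tested genes in this direction (log2 difference -1.92, SE 0.30, edgeR unadjusted p = 0.00126, adjusted p = 0.602).

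Bach2, which represses Prdm1, was at 1310.4, 2265 and 1602 CPM in members against 2445, 2773 and 3189 CPM in other cells (log2 difference -0.66, SE 0.18, edgeR unadjusted p = 0.0122, adjusted p = 0.602). Bcl6, the master regulator of the GC program, was at 142, 198 and 263 CPM against 350.4, 397 and 297 CPM (log2 difference -0.76, SE 0.27). Pax5 was at 272, 929 and 739 CPM against 804, 1028 and 848 CPM, so the difference was mainly in A11 (log2 difference -0.56, SE 0.32). Bach2 and Bcl6 did not overlap between groups and Pax5 did. Ebf1, which specifies the B lineage, was lower in A11 and V9 (1341 against 2106 CPM and 1894 against 2165.8 CPM) and higher in A12 (2947 against 2133 CPM), and its log2 difference of -0.058 was 0.20 without A11.

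Outside that list, the leading genes on the lower side were Pitpnc1, a phosphatidylinositol transfer protein, at 542, 766 and 707 CPM against 1288, 1506 and 1410.0 CPM (log2 difference -1.004, SE 0.13, edgeR unadjusted p = 0.000421, adjusted p = 0.602). Lpp, a focal adhesion protein, was at 841, 1709 and 1050.4 CPM against 2232, 2509 and 2468 CPM (log2 difference -0.997, SE 0.20). Marchf1, a ubiquitin ligase that turns over MHC class II and CD86, was at 149.9, 249 and 131 CPM against 411, 437 and 319.8 CPM (log2 difference -1.12, SE 0.22). All 3 had separate groups. Hivep2, Ctdspl2, Dnmbp, 2610035D17Rik, Baz2b, Arpc5l, Pik3c2b and Dpysl2 completed the 12, with log2 differences from -0.70 (Arpc5l) to -1.81 (2610035D17Rik) apart from Dnmbp, which was under 1 CPM in the members of each of the 3 hosts.

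Components of BCR signaling held more lower genes than the background of 6.62%. Of 20 listed genes, all tested, 6 were lower and 0 higher at an unadjusted p under 0.05 and 12 were lower in 3 of 3 hosts, against 22.8% of all tested genes. The median log2 difference of -0.40 was near the -0.44 of all tested genes and below the -0.04 of those averaging 20 CPM or more. Inpp5d, which encodes the inhibitory phosphatase SHIP-1, was at 884, 629 and 718 CPM in members against 1104, 988 and 889 CPM. Pik3ap1, an adaptor for PI3K, was at 833, 543 and 680.5 CPM against 1039, 882 and 1116 CPM, and Lyn, the proximal kinase, was at 659.7, 878 and 567 CPM against 748, 945 and 869.7 CPM. Btk itself was at 269, 203 and 243 CPM against 326, 328 and 300.0 CPM, lower in all 3 hosts (log2 difference -0.36, SE 0.19, edgeR adjusted p = 0.793).

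Myc, induced by T cell help, was at 243, 256 and 371 CPM in members and 228, 144 and 171 CPM in other cells (log2 difference 0.75, SE 0.27, edgeR unadjusted p = 0.0362, adjusted p = 0.602). In the other 5 hosts Myc was higher in members in 1 host and lower in 4, while the pooled cells were at 119 against 109 CPM (log2 difference 0.13). In edgeR its log2 difference was -0.69 over the 7 hosts with at least 3 members and -0.54 with the host-and-plate block. Genes averaging 100 CPM or more had medians of -0.33 and -0.60 there. Limma voom over the 7 hosts gave 0.70 for Myc, where all its genes had a median of 0.27. In the MYC target and ribosome biogenesis list 5 of 29 tested genes were higher and 0 lower at an unadjusted p under 0.05, against 1.41% and 6.62% of all tested genes. In 3 of 3 hosts 14 were higher, against 8.69% of all tested genes. The list's median log2 difference was 0.39. Against other cells matched in depth it was 0.13, near the 0.068 of all genes there. The most abundant genes of the list were Ncl (nucleolin, 904, 653 and 882 CPM against 698, 561 and 621 CPM), Npm1 and Cdk4. All 3 were higher in members of each host, although Npm1 was at -0.090 against other cells matched in depth. With the host-and-plate block Npm1 was at -0.068 and Cdk4 at -0.80. Of 30 genes of T cell help and NF-kB response, 4 were higher and 0 lower at an unadjusted p under 0.05, against 1.41% and 6.62% of all tested genes. By direction alone 9 were higher and 0 lower in 3 of 3 hosts, against 8.69% and 22.8%. This list's median of 0.35 was 0.016 in the other 5 hosts. The remaining lists are counted at the same unadjusted threshold and read against the same background of 1.41% higher and 6.62% lower. MHC class II presentation had 0 higher and 1 lower of 12 tested, and mTORC1 and amino acid metabolism 3 and 0 of 29. For the cell cycle, S phase had 0 and 1 of 43 and G2/M phase 3 and 1 of 54. Dark zone genes had 2 and 1 of 11, memory precursor genes 1 and 1 of 17, and BCR early response genes 1 and 2 of 16.

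**Figure D4:**
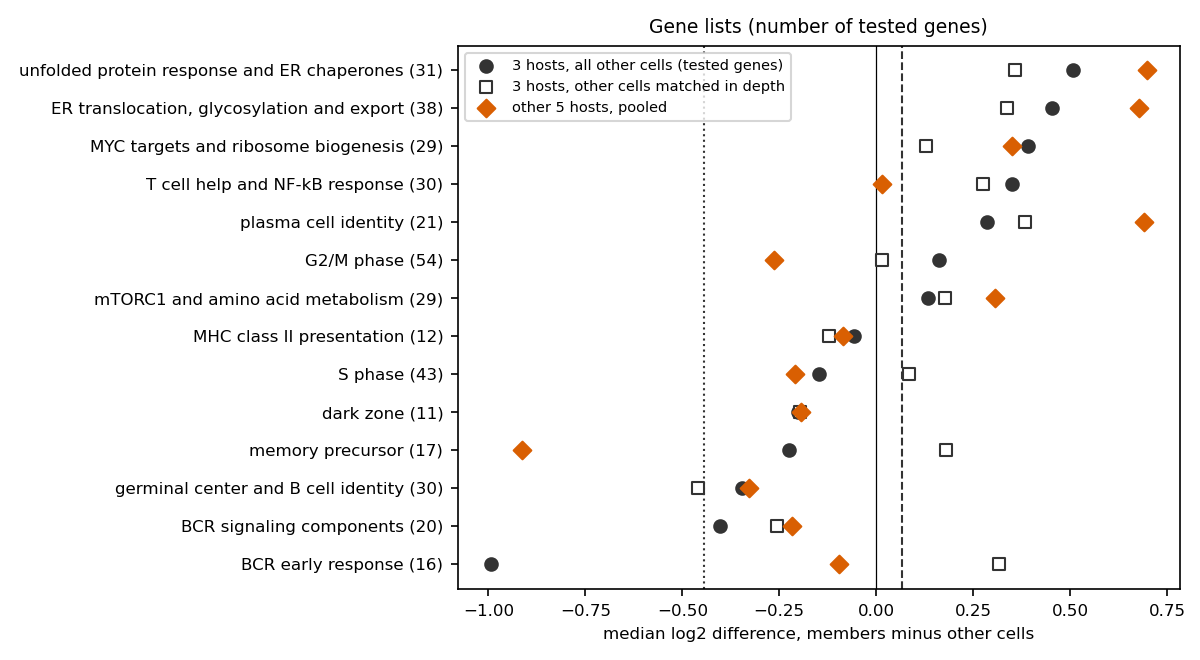
Median log2 difference of each gene list with at least 10 tested genes, members minus other cells, against all other cells of 3 hosts (filled circles), against other cells matched in depth (open squares) and in the other 5 hosts pooled (diamonds); the dotted line is the median of all tested genes (-0.44) and the dashed line that of the matched comparison (0.068). The ER, plasma cell, MYC target, mTORC1 and T cell help lists lie to the right of 0 in all 3 readings (T cell help at 0.016 in the other 5 hosts), and the GC identity, BCR signaling, MHC class II and dark zone lists to the left.

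In the plasma cell identity list 21 of 25 genes were tested, of which 4 were higher and 2 lower at an unadjusted p under 0.05, against 1.41% and 6.62% of all tested genes, and the median was 0.28 against -0.44. Jchain, which joins IgM and IgA into polymers, was at 1133, 979.6 and 806 CPM in members and 841, 816 and 832 CPM in other cells, higher in 2 of 3 hosts (log2 difference 0.28, SE 0.15, edgeR adjusted p = 0.793), with -0.062 in the host-and-plate fit. Pou2af1, a B cell coactivator, differed by 0.03 on the log2 scale (SE 0.18), a sign that turned without A11 (-0.13) or V9 (-0.019). Zbtb20, a plasma cell survival factor, was lower in members (503, 545 and 732 CPM against 972, 952 and 1002 CPM). Sdc1, which encodes CD138, was at 58.0 and 68.2 CPM in members of A11 and V9 against 11.5 and 0.198 CPM in other cells, and at 0 in both classes of A12 (log2 difference 4.801, SE 2.56, edgeR adjusted p = 0.802, and 2.15 without V9). A single cell held 99.7% of the member counts in A11, and 2 cells held all of them in V9. It was detected in 7 of 60 members (11.7%) and 8 of 577 other cells (1.39%). Mzb1 was at 0 in all 60 members and detected in 2 of 577 other cells (at most 1.57 CPM), and Tnfrsf17, the receptor BCMA, was detected in 1 of 60 and 6 of 577. Being near 0 in all cells, Mzb1 cannot tell the classes apart. The other markers thus gave a partial plasma cell profile.

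The 5 hosts left out of the fit (A7, A8, A10, V5 and V7) held 17 members with 11855828 counts and 295 other cells. These cells took no part in choosing the leading genes, and gave the same direction for 12 of the 12 leading higher genes and 11 of the 12 leading lower genes, with medians of 1.93 and -0.66 on the log2 scale. Among all genes of at least 20 CPM the same comparison held for 52.3% of 3618 higher and 58.0% of 4104 lower genes. Pooled Rbm47 was at 375 CPM in the 17 members and 13.5 CPM in the other cells of these hosts, Pdia4 at 410.3 and 87.0 CPM, and Zeb2 at 324 and 40.8 CPM. The exception was 2610035D17Rik, at 716 against 602 CPM. These directions are of the pooled cells, and few cells carried some of them. All Rbm47 counts lay in the members of A10 (3) and V7 (2) with all 3 genes, at 374 to 1841 counts per cell. Pdia4 had 330 to 1683 counts in those cells, 254 in 1 member of A7, 171 in 1 of A8 and 0 in the rest. Within single hosts of 2 to 4 members, 5 of the 12 higher genes were higher in at least 3 of 5 hosts (Hsp90b1 in 4, and Zeb2, Pdia4, Rpn1 and Mtdh in 3), Rbm47, Tram2, Fndc3a, Capg, Aff1 and Bcl2l1 were higher in 2, and Morrbid was higher in 1 and lower in 4. Of the 12 lower genes, 11 were lower in at least 3 of 5 hosts. No share over all tested genes was computed for these counts by single host, so they are a description only. The list medians in these hosts were 0.70 for ER chaperones, 0.68 for ER export, 0.69 for plasma cell identity, -0.33 for GC identity and -0.22 for BCR signaling, while G2/M phase genes turned from 0.16 in the fit to -0.26.

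Members differed among themselves by which genes had chosen them, and this is given as a description without a test, since the same cells were split after their values were seen. Pdia4 was detected in 9 of 27 members with Irf4 and Xbp1 alone (33.3%), 11 of 21 with Prdm1 and Xbp1 alone (52.4%) and 10 of 12 with all 3 genes (83.3%), against 45 of 249 cells with none (18.1%) and 102 of 328 with 1 gene (31.1%). Median genes detected per cell were 4238, 4480 and 5306.5 in these members, 3715 in cells with none and 4143 in cells with 1 gene, and their part in the detection shares was not tested. Rbm47 followed a like order, at 18.5%, 28.6% and 83.3% of these members, as did Tent5c, a poly(A) polymerase of secreting cells, at 11.1%, 23.8% and 58.3%. Ell2, an elongation factor of plasma cells (22.2%, 28.6% and 58.3%), Creb3l2, an ER stress transducer (18.5%, 47.6% and 50%), and Jchain (85.2%, 90.5% and 91.7%) followed it too within members. The order did not extend to cells with none and with 1 gene for these 3 genes. There Ell2 was detected in 28.9% and 32.3%, Creb3l2 in 25.3% and 22.9%, and Jchain in 85.9% and 95.7%. Rbm47 was detected there in 11.2% and 18.9%, the latter level with the 18.5% of the Irf4 and Xbp1 members. Tent5c was detected in 4.8% and 8.8% of cells with none and with 1 gene. Other genes did not follow the order within members. Across the same 3 member subsets Hsp90b1 was detected in 88.9%, 66.7% and 100%, Hspa5 in 100%, 85.7% and 91.7%, and Rpn1 in 88.9%, 76.2% and 83.3%. Tram2 (51.9%, 42.9% and 83.3%), Derl3, an ER degradation factor (37.0%, 28.6% and 58.3%), and Zeb2 (37.0%, 33.3% and 50%) were highest in the all-3 cells but not ordered between the other two subsets in that way. Sdc1 was detected in 6 of the 12 members with all 3 genes, in 1 of 27 with Irf4 and Xbp1 and in 0 of 21 with Prdm1 and Xbp1, where counting error over cells alone allows a share of cells with a count of up to 16.1% (exact 95% interval). Of the 7 members with an Sdc1 count, 6 had all 3 genes.

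Pax5 and Bcl6 were detected least often in the same 12 cells, and the limits of 10 counts used next were also set with the values known. Pax5 had a count in 6 of 12 (50%), against 92.6% and 90.5% in members with a pair of the genes and 95.6% in cells with none. Bcl6 was detected in 41.7%, 66.7% (Irf4 and Xbp1) and 85.7% (Prdm1 and Xbp1). In 4 hosts, 12 members had fewer than 10 counts of both Pax5 and Bach2 (20%, exact interval 10.8 to 32.3%), 7 of them with all 3 genes and 7 with at least 10 counts of Prdm1, against 3 of 577 other cells (0.52%). The 15 members with at least 10 counts of Prdm1 had a median over cells of 5.74 CPM for Pax5, 2.65 CPM for Bach2 and 1828 CPM for Jchain, against 706, 2349 and 639 CPM in the 18 members with 1 to 9 counts. Single cells of the former reached 4304 CPM of Pax5 and 5573 CPM of Bach2, so their summed levels (418 and 1194 CPM) do not describe most of them. Median depth was 787902 counts in the former and 836018 in the latter.

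Members with Irf4 and Xbp1 but no Prdm1 differed from those with Prdm1 and Xbp1 in detection of some genes and not of others, with no test of the difference. Myc was detected in 17 of these 27 (63.0%) and 28.6% of the Prdm1 and Xbp1 members, and Cd40, the receptor for T cell help, in 70.4% and 23.8%. The costimulatory gene Cd86 was detected in 59.3% and 57.1%, and Slamf7, a surface receptor of plasma cells, in 66.7% of each. Ciita, the activator of MHC class II genes, was detected in 85.2% of them, 66.7% of the Prdm1 and Xbp1 members and 33.3% of the all-3 cells. Thinned to 1 depth, Myc was detected in 68.0% and 31.6%, Cd40 in 68.0% and 21.1%, and Pdia4 in 36%, 52.6% and 90.0% of the subsets in the order above, and the orders were kept. The 64 cells left out, 6 of them members, fell below the thinning depth.

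**Figure D5:**
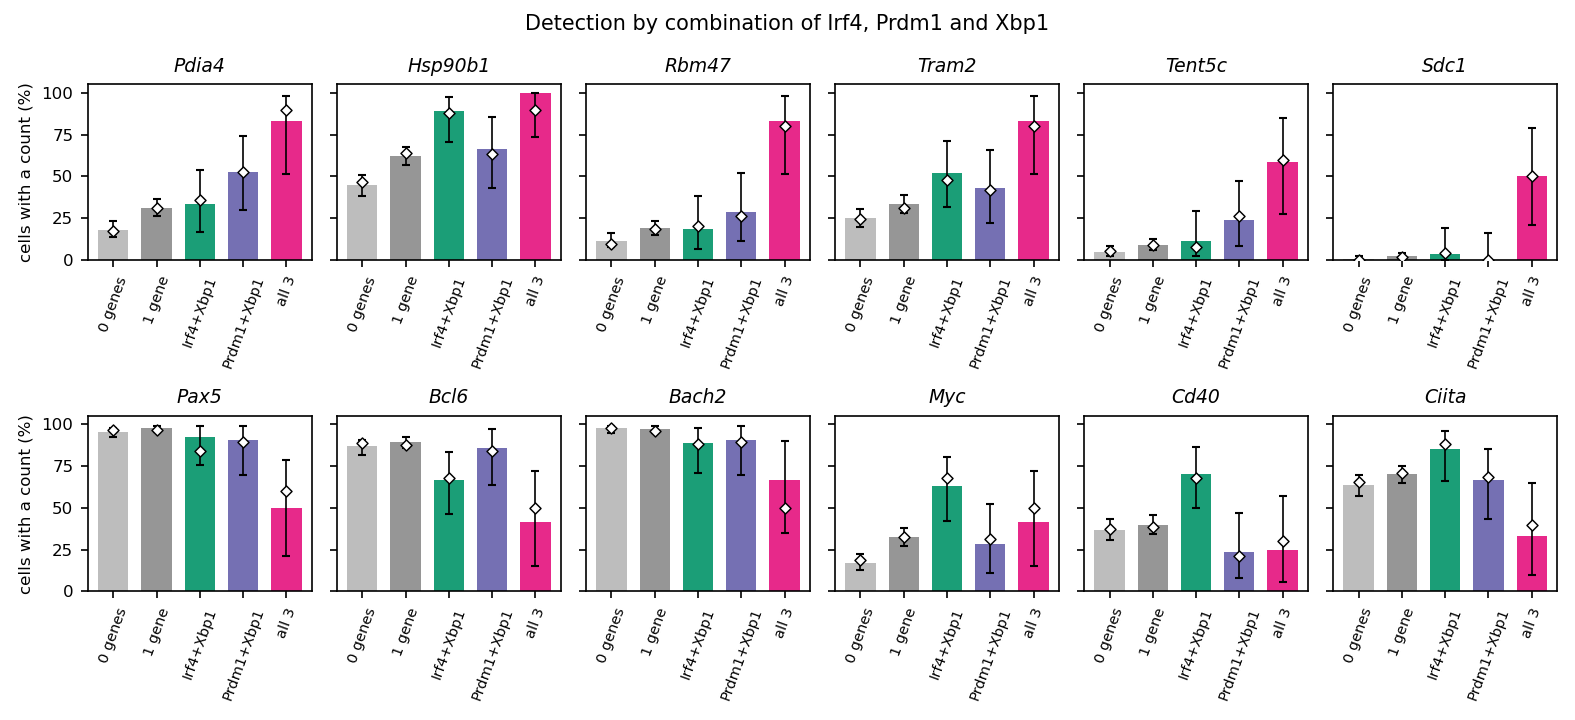
Percentage of cells with a count for 12 genes in cells with 0 or 1 of the rule genes, in members with Irf4 and Xbp1, Prdm1 and Xbp1, and all 3 genes (249, 328, 27, 21 and 12 cells), with exact binomial 95% intervals; diamonds give the value after thinning. Pdia4 and Rbm47 were detected in 83.3% of the all-3 cells, and Myc most often in the Irf4 and Xbp1 members (63.0%).

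Immunoglobulin constant region genes took 0.199% of counts in members and 0.185% in other cells (means of 3 hosts), higher in members in 2 of 3 hosts (difference 0.014 ± 0.020 percentage points, SD, n = 3, two-sided exact sign-flip permutation p = 0.5). The difference was 0.0031 without A11 and 0.023 without A12. Over the 7 hosts with at least 3 members, an alternative added after seeing the data, the difference came to 0.035, positive in 5 of 7 (two-sided exact permutation of signs, p = 0.0938). Ighg1 was the highest heavy chain constant gene in 55 of 60 members and 541 of 577 other cells, and Ighm in 4 of 60 and 34 of 577. Ighg1 was at 2431 CPM in the 12 cells with all 3 genes, 1883 CPM in the Prdm1 and Xbp1 members and 1534 CPM in the Irf4 and Xbp1 members, against 1759 CPM in cells with none. Of 12 constant region genes 8 were tested in the fit, with 0 higher and 2 lower at an unadjusted p under 0.05, against 1.41% and 6.62% of all tested genes. The libraries had no molecular identifiers and counts were deduplicated by exact position, so repeated reads at the same position counted once. The part of this in the immunoglobulin shares was not tested.

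Markers of other cell types had few counts, and of those tested 0 of 4 T cell, 0 of 2 macrophage and 0 of 5 dendritic and stromal genes were higher at an unadjusted p under 0.05, and 1, 0 and 3 lower. Among all tested genes 1.41% were higher and 6.62% lower, so with 2 to 5 genes per list 0 higher cannot be told from that background. The 8 T cell markers summed to 19.9, 26.8 and 35.2 CPM in members and 32.4, 20.4 and 18.2 CPM in other cells. Cd4 was the most abundant in the mean over both classes and in members (mean 17.6 CPM, against 6.50 CPM for Lat). In A11 Cd4 was at 0 in both classes, and in other cells its mean of 4.54 CPM lay below that of Lat (12.3 CPM). Cd3e and Trbc2 were at 0 in all members. The 9 macrophage and monocyte markers summed to 90.2, 64.6 and 83.3 CPM in members and 26.2, 26.0 and 26.4 CPM in other cells, so they were higher in members in each host. Cd68 made up most of that sum (81.3, 55.2 and 57.8 CPM in members), while 6 of the 9 genes, Lyz2, Cd14, C1qa, C1qb, C1qc and Itgam, were at 0 in all members. The 8 dendritic cell and stromal markers summed to 228, 101 and 189 CPM in members and 152, 219 and 201 CPM in other cells. Pecam1 was the most abundant over both classes (86.4, 61.2 and 97.5 CPM in members) and Flt3 exceeded it in the members of A11 alone (142, 39.0 and 91.0 CPM), with Pdgfrb and Cxcl13 at 0 in all members. The part of these transcripts in the differences above was not tested.

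Whether the member profile differed with treatment was asked in the same 3 hosts, 2 with acalabrutinib and 1 with vehicle. The class by treatment term of edgeR called 0 of 15414 genes (299 at an unadjusted p under 0.05, 1.94%), and members of acalabrutinib hosts against members of the vehicle host gave 0 of 15172 (241 at an unadjusted p under 0.05, 1.59%). DESeq2 called 392 and 1362 genes. With 1 vehicle host, treatment and that host cannot be told apart. The donor genotype of the cells in each sum was not analysed here.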

How the data were processed

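Single LZ GC B cells were sequenced by SMART-seq2. The authors aligned reads with STARsolo 2.7.10a to GRCm39 (the submitters' processing notes also list GRCm38) and deposited whole-number counts per gene (exonic and intronic overlap), deduplicated by exact position, for 56691 genes and 637 cells, all of which pass the filter stated in the study (at most 5% mitochondrial, at least 200 genes). No column was left out and no doublet caller was run. Hosts came from cell names and treatments from the labels, and replicate numbers within a group only name samples. The members and gene lists were chosen with earlier results of these data known. Counts were summed per host and class (at least 5 cells each), filtered with filterByExpr and tested with edgeR 4.0.16 (TMM, quasi-likelihood, host as block), leaving out Irf4, Prdm1 and Xbp1. DESeq2 1.42.0 and limma 3.58.1 served as alternatives. CPM is counts per 1000000 of a sum. P-values measure the spread between hosts. The named genes rule took called genes (none), the 3 most abundant genes of a list and 9 fixed genes, and 1 list gene had no matching symbol. On simulated counts for this comparison (14954 genes, fitted dispersions) 15% of 200 genes changed 4-fold were recovered, against 94.5% at a dispersion of 0.1. After the main test called none, 24 further fits with a CPM filter were tried, all given below. The edgeR fit with 10 counts per gene over hosts of at least 3 members, also given below, was not planned either. Some items are not reported here.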

Additional observations from a re-analysis of the deposited data

How the results depend on the processing

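The number of genes called between members and other cells depended on the tool. The edgeR test with host as a block called none, and so did RLE size factors, no filter, thinned cells, 10 counts per gene (with hosts of 5 or, not planned, of 3 members), other cells matched in depth, comparators with none or 1 of the genes, and no replicate block (0 higher, 0 lower). Leaving out A11, A12 or V9 gave 0 to 0. DESeq2 called 148 higher and 667 lower. The edgeR test over 7 hosts with at least 3 members called 0 and 28, and with a host-and-plate block (12 plates) 0 and 450, where the median of all genes was -1.31 and -1.55 and most sums held few cells. The 24 fits added after seeing the data crossed edgeR and limma voom with sample quality weights, filters of 20, 50 and 100 mean CPM and 4 sets of sums, and 12 made any call. In edgeR, 3 hosts gave 0, 0 and 1 lower call, 7 hosts 0 at each filter, and plates 27, 0 and 0 lower calls. Applying 10 counts per gene together with a minimum of 3 members per host (5 hosts) gave 0 at each filter. In voom, higher and lower calls were 84 and 39, 0 and 0, 0 and 0 over 3 hosts, then 208 and 56, 310 and 44, 220 and 25 over 7 hosts. They were 137 and 37, 450 and 67, 349 and 56 where 10 counts per gene and the minimum of 3 members per host were applied together (5 hosts). Over plates they were 216 and 22, 635 and 33, 382 and 21. The cause of the difference between tools was not tested, and no voom call is used in the report.

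The share of members moved to 5.81% with 10 counts per gene and 6.12% with 10 CPM per gene. The treatment difference in that share kept its direction and did not pass under any alternative (0.064 to 4.42 percentage points without single hosts). Without single hosts the difference in genes per cell was 165 to 616 and in immunoglobulin share 0.0031 to 0.023 percentage points (0.035 over 7 hosts, added after seeing the data). The depth difference was 15513 counts, -43411 with 10 counts per gene and -25629 to 69972.5 without single hosts. DESeq2 called 392 genes for class by treatment and 1362 among members. Leaving out A11 or A12 left these fits no residual degrees of freedom, and leaving out V9 left 1 treatment, so they were not run. Of 693 values of 47 named genes under alternatives, 605 kept direction and side of the threshold, 68 passed it and 20 changed sign. Beside them, genes averaging 100 CPM or more had edgeR medians of -0.33 over 7 hosts and -0.60 by plate, and voom over 7 hosts had a median of 0.27 over all its genes. The sign changes were Myc (-0.69 over 7 hosts, -0.54 by plate), Morrbid (-0.36 over 7 hosts), by plate Jchain (-0.062), Fndc3a (-0.31), Npm1 (-0.068) and Cdk4 (-0.80), Npm1 matched in depth (-0.090) and Tnfrsf17 unfiltered (-0.071). Ebf1 was 0.0188 with DESeq2 and with RLE, 0.0012 matched, 0.023 without the block and -0.39 to 0.20 without single hosts. Pou2af1 was -0.049 unfiltered, -0.15 thinned, -0.029 with 10 counts, -0.069 against cells with 1 gene and -0.13 to 0.20 without single hosts (-0.019 without V9).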
